A study of Mus musculus with 6 samples.

Results

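The 36 genes described here carry glucose into T cells, break it down to lactate, divert it into the pentose phosphate pathway, admit pyruvate to mitochondria, or regulate these steps. They were chosen by name, and each was read through the probe set that was brightest on average. Of the 36 genes, 32 had a probe set of their own among the 18193 genes that the platform annotation names singly. Gapdh is named singly only on control probe sets and is given apart from the counts, and Gpi1, Eno1 and G6pdx were not analysed here. The series asks what loss of the proprotein convertase furin does to mouse CD4 T cells, on Affymetrix arrays. All mice were C57BL/6, 10 to 11 weeks old, and carried loxP-flanked Fur alleles in both genotypes. The cKO animals were CD4 cre Fur flox/flox, in which the Cd4 promoter drives Cre from the thymus onward, and the control animals were Fur flox/flox without Cre. Activated cells were sorted as CD4+ CD62L+ CD44- naive cells and stimulated for 2 days on plate-bound antibodies to CD3 and CD28, each at 5 µg/ml. Regulatory cells were sorted as CD4+CD25+FoxP3+ and memory cells as CD4+ CD62L- CD44+, and neither was cultured. Each of the 6 combinations of genotype and population had 1 array. No array of unstimulated naive cells was among them, so a population difference here joins cell type, culture and stimulation.

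Glycolysis turns glucose into pyruvate in the cytosol, and the pentose phosphate pathway takes glucose 6-phosphate aside to make NADPH and ribose for nucleotides. Resting lymphocytes are known to burn little glucose, whereas T cells stimulated through the antigen receptor take up more of it and export lactate even in oxygen. The transcription factor Myc is known to drive this programme in newly activated T cells, and HIF-1 alpha, the product of Hif1a, drives many of the same genes in low oxygen.

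Values are array signals on a linear scale, and differences are on a log2 scale after signals below a floor of 47.6 were raised to it, and 30 of the 32 genes were above it on all 6 arrays. The share of probe sets above the floor was 49.4% to 49.8% on the activated arrays, against 62.5% to 67.4% on the other arrays. For beta-actin, the signal at the 3' end over that at the 5' end, which reflects RNA integrity and labelling, was 1.24 cKO and 1.22 control in activated cells, 1.36 cKO and 1.35 control in regulatory cells, and 1.56 cKO and 1.93 control in memory cells. The same ratio for Gapdh was 1.48 cKO and 1.51 control in activated cells, 0.627 cKO and 0.641 control in regulatory cells, and 0.791 cKO and 1.02 control in memory cells, so that it was highest on the activated arrays, and its part in the population differences was not tested. The spiked control bioB read 757.5 cKO and 656.0 control in activated cells, 1808 cKO and 2123 control in regulatory cells, and 2974 cKO and 4145 control in memory cells, and its part in the differences below was not tested. The 5 measured T cell markers were above the floor on all arrays. Foxp3, which defines regulatory cells, read 11.9 cKO and 27.0 control in activated cells, 33.8 cKO and 50.4 control in regulatory cells, and 1116 cKO and 1358 control in memory cells, the reverse of the sort labels. Of the 7 other measured regulatory markers 6 were higher on both regulatory arrays than on every other array, such as Ikzf2, which encodes Helios, with 442 cKO and 582 control in activated cells, 15968 cKO and 13901 control in regulatory cells, and 8213 cKO and 9419 control in memory cells. The exception was Ctla4, with 10316 cKO and 11925 control in activated cells, 10619 cKO and 11033 control in regulatory cells, and 2934 cKO and 3339.9 control in memory cells. Furin itself read 468 cKO and 516 control in activated cells, 410.0 cKO and 547 control in regulatory cells, and 2203 cKO and 647 control in memory cells, so the memory pair went against the labelled loss. Where that probe set lies relative to the deleted part is not stated in the sources, and the arrays are called by their labels throughout. The summed level of 8 measured granulocyte markers was 7473 on the cKO and 789 on the control array of memory cells, and that of 9 myeloid and dendritic cell markers was 7754 on the cKO and 14402 on the control array. Both sums were at most 426 on the activated arrays.

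Activated cells had more signal for at least 1 gene of most glycolytic steps (Hk2, Pfkl, Tpi1, Pgk1, Pgam1, Eno3, Pkm and Ldha), for the lactate transporter gene Slc16a1, for Pgd of the pentose phosphate pathway and for Myc than either population taken directly from the animal. Of the 32 measured genes, 15 rose and 5 fell in activated against memory cells, and 18 rose and 4 fell in activated against regulatory cells, where the genes that fell include Hk3, whose calls rest on values at the floor. Among all 15798 genes tested, 17.4% rose and 27.1% fell against memory cells (44.5% in either direction), and 18.2% rose and 26.7% fell against regulatory cells (44.9%). The activated arrays did not overlap the memory arrays in 29 of the 32 genes, where 66.5% of all genes did not, nor the regulatory arrays in 30, where 69.4% did not. The median log2 difference of the 32 genes was 0.59 against memory cells and 0.68 against regulatory cells, where the medians over all genes were -0.21 and -0.23. Both comparisons use the same activated arrays, and 14 genes rose in both while 3 fell in both. No gene passed in opposite directions. In sorted bulk samples fewer cells of a type and less RNA per cell cannot be told apart. The activated arrays also differed in their share of dim probe sets, and a batch of arrays, if there was one, and population cannot be told apart.

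**Figure D1:**
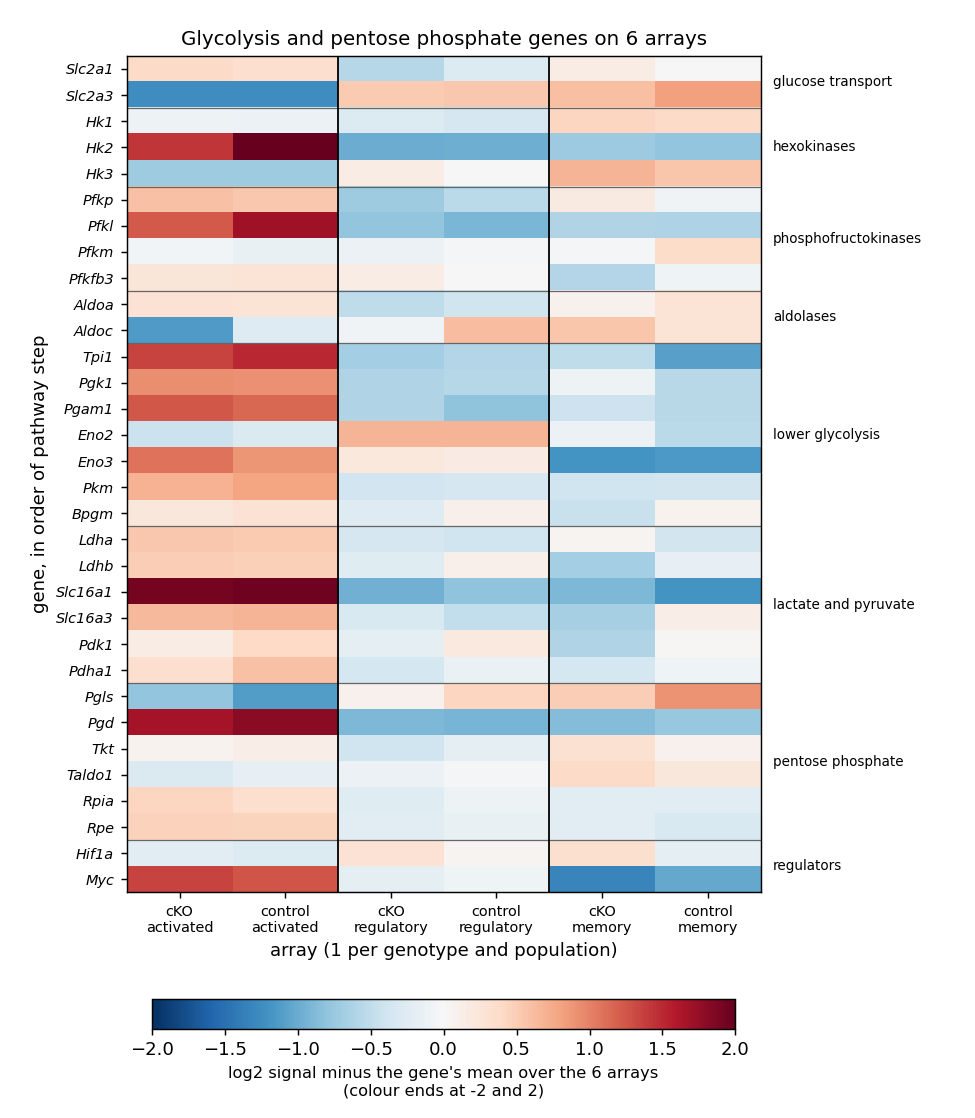
Log2 signal of the 32 measured genes (rows, by pathway step) on each of the 6 arrays (columns), as the difference from the gene's own mean over the arrays, with red for higher and blue for lower. The 2 activated arrays stand apart in most rows, with Slc16a1, Hk2, Pgd, Pfkl, Tpi1 and Myc higher and Slc2a3, Hk3 and Pgls lower there.

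Differences between populations were tested with a linear model of population and genotype over the 6 arrays (limma), in which each population is represented by 2 arrays of different genotype. A gene was called at an adjusted p below 0.05, with adjustment over all 15798 genes. The 2 arrays of a population differ in genotype and so came from different animals. The labels do not say whether arrays of the same genotype share animals across populations. The p-values thus measure only the spread between these arrays after genotype is taken out, with 2 residual degrees of freedom. Errors given with log2 differences are standard errors of this fit.

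Glucose enters T cells mainly through the transporters GLUT1 and GLUT3, encoded by Slc2a1 and Slc2a3, and their transcripts went different ways. Slc2a3 read 2336 cKO and 2337 control in activated cells, 7895 cKO and 8046 control in regulatory cells, and 8353 cKO and 9794 control in memory cells. The activated arrays were the lowest and did not overlap the others, and the difference was -1.77 ± 0.15, adjusted p = 0.00258 against regulatory cells and -1.95 ± 0.15, adjusted p = 0.00211 against memory cells. Slc2a1 gave 2246 cKO and 2186 control in activated cells, 1164 cKO and 1427 control in regulatory cells, and 1909.5 cKO and 1724 control in memory cells. It rose in activated against regulatory cells (0.78 ± 0.17, adjusted p = 0.0254), while the difference from memory cells was 0.29 ± 0.17, adjusted p = 0.266. In a fit of every probe set, another Slc2a1 probe set was called higher than in memory cells (1.08 ± 0.22, adjusted p = 0.0229). The remaining Slc2a1 probe set was not called there (0.47 ± 0.17, adjusted p = 0.113).

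Hexokinases trap glucose by phosphorylation, and the 3 measured isoenzymes separated. Hk2, the inducible form, read 1739 cKO and 2675 control in activated cells, 326 cKO and 328 control in regulatory cells, and 392 cKO and 374 control in memory cells. It was 6.6-fold higher in activated than in regulatory cells (2.72 ± 0.23, adjusted p = 0.00255) and 5.64-fold higher than in memory cells (2.50 ± 0.23, adjusted p = 0.00276). The broadly expressed Hk1 was brightest on the memory arrays, with 2196 cKO and 2181 control in activated cells, 1958 cKO and 1876 control in regulatory cells, and 3166 cKO and 3073 control in memory cells. It fell in activated against memory cells (-0.51 ± 0.14, adjusted p = 0.0408) and differed by 0.19 ± 0.14, adjusted p = 0.326 from regulatory cells. Hk3, a form of myeloid cells, was below the floor on both activated arrays, where its fold is a lower bound. Signals of Hk3 were 7.9 cKO and 6.1 control in activated cells, 86.1 cKO and 78.3 control in regulatory cells, and 124.3 cKO and 114.1 control in memory cells. The activated arrays were thus at least 1.72-fold lower than the regulatory arrays and at least 2.5-fold lower than the memory arrays. Hk3 entered the fit only through the other arrays, and both activated values were raised to the same floor, so that their spread is 0 by construction and its calls are no test. Without Hk3, 4 genes fell against memory cells and 3 against regulatory cells. Between populations the myeloid and dendritic marker sum followed the same order as Hk3. Within memory cells it did not, with 7754 cKO and 14402 control, where Hk3 was slightly higher on the cKO array. The part of such cells in the Hk3 result was not tested.

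Phosphofructokinase makes the committed step of glycolysis from subunits of liver (Pfkl), platelet (Pfkp) and muscle type (Pfkm). Pfkl read 3644 cKO and 4999.9 control in activated cells, 894 cKO and 826 control in regulatory cells, and 1023 cKO and 1013 control in memory cells. Both activated arrays lay far above the rest, 4.97-fold over regulatory cells (2.31 ± 0.20, adjusted p = 0.00271) and 4.19-fold over memory cells (2.07 ± 0.20, adjusted p = 0.00309). Pfkp gave 6168 cKO and 6006 control in activated cells, 2522 cKO and 2834 control in regulatory cells, and 4663 cKO and 3933 control in memory cells, with a rise against regulatory cells (1.19 ± 0.17, adjusted p = 0.00757) and a difference of 0.51 ± 0.17, adjusted p = 0.0729 from memory cells. Pfkm stayed between 499 and 711 on all 6 arrays and was not called. Pfkfb3, whose product makes the allosteric activator fructose 2,6-bisphosphate, was not called either, with log2 differences of 0.17 ± 0.21 against regulatory and 0.58 ± 0.21 against memory cells.

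Aldolase splits the sugar into a pair of trioses, and its broadly expressed form, Aldoa, gave 12017 cKO and 11851 control in activated cells, 6919.5 cKO and 7497 control in regulatory cells, and 10418 cKO and 11876 control in memory cells. Activated and memory arrays overlapped (0.10 ± 0.14, adjusted p = 0.641), and activated cells were higher than regulatory cells (0.73 ± 0.14, adjusted p = 0.0183). Aldoc, the brain form, was not called, with 156 cKO and 284 control in activated cells, 326 cKO and 522 control in regulatory cells, and 500.1 cKO and 414 control in memory cells, and log2 differences of -0.97 ± 0.32, adjusted p = 0.073 against regulatory and -1.11 ± 0.32, adjusted p = 0.0516 against memory cells.

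In the lower part of glycolysis 5 of 7 measured genes rose against memory cells, and 5 rose and 1 fell against regulatory cells. Tpi1, triosephosphate isomerase, read 12960.5 cKO and 14423 control in activated cells, 3173 cKO and 3379 control in regulatory cells, and 3581 cKO and 2394 control in memory cells. Its log2 differences were 2.06 ± 0.24, adjusted p = 0.00477 against regulatory cells and 2.22 ± 0.24, adjusted p = 0.00381 against memory cells. Pgk1, which makes the first ATP of the pathway, had 19514 cKO and 19421 control in activated cells, 6761 cKO and 6918 control in regulatory cells, and 9554 cKO and 7037 control in memory cells. It was 2.85-fold and 2.37-fold higher in activated than in regulatory and memory cells. Pgam1, phosphoglycerate mutase, stood at 9897 cKO and 9264 control in activated cells, 2743 cKO and 2392 control in regulatory cells, and 3138 cKO and 2845 control in memory cells. Its log2 difference was 1.90 ± 0.14 against regulatory and 1.68 ± 0.14 against memory cells, with an adjusted p of 0.00215 and 0.00237. Pkm, pyruvate kinase, rose as well, with 11144 cKO and 11859 control in activated cells, 5249.5 cKO and 5448 control in regulatory cells, and 5225 cKO and 5330.0 control in memory cells, and adjusted p = 0.00547 against regulatory and 0.00506 against memory cells.

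Enolases make phosphoenolpyruvate, and of the measured ones Eno3 separated the 3 populations. Eno3, the muscle form, read 1878 cKO and 1633 control in activated cells, 1029.8 cKO and 994 control in regulatory cells, and 386 cKO and 399 control in memory cells. The pairs did not overlap, and activated cells exceeded regulatory cells by 0.79 ± 0.15, adjusted p = 0.0155 and memory cells by 2.16 ± 0.15, adjusted p = 0.00187. Eno2, the neuronal form, was dim on every array and gave 71.9 cKO and 79.5 control in activated cells, 155 cKO and 155 control in regulatory cells, and 89.2 cKO and 66.6 control in memory cells. Its activated and memory arrays overlapped. It was called lower in activated than in regulatory cells (-1.04 ± 0.20, adjusted p = 0.0159), which ended at -0.14 with quantile normalization, -0.06 with cyclic loess and -0.10 under a 60th-percentile floor. Bpgm, which makes 2,3-bisphosphoglycerate and is best known from red cells, was not called, with log2 differences of 0.33 ± 0.18 against regulatory and 0.44 ± 0.18 against memory cells. The 5 measured erythroid markers had sums of 286 to 1553 over the arrays. Gapdh, seen through its control probe sets, had 3' signals of 17831 cKO and 17216 control in activated cells, 16464 cKO and 16096 control in regulatory cells, and 24379.6 cKO and 23339 control in memory cells. The 5' control probe set of Gapdh gave 12072 cKO and 11381 control in activated cells, 26250.0 cKO and 25094 control in regulatory cells, and 30805 cKO and 22869 control in memory cells. Activated minus regulatory cells was 0.11 at the 3' end, -0.18 in the middle and -1.13 at the 5' end. The direction for Gapdh against regulatory cells thus depends on the part of the transcript read. Activated minus memory cells was -0.45, -0.37 and -1.18 in the same order, lower at each part.

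**Figure D2:**
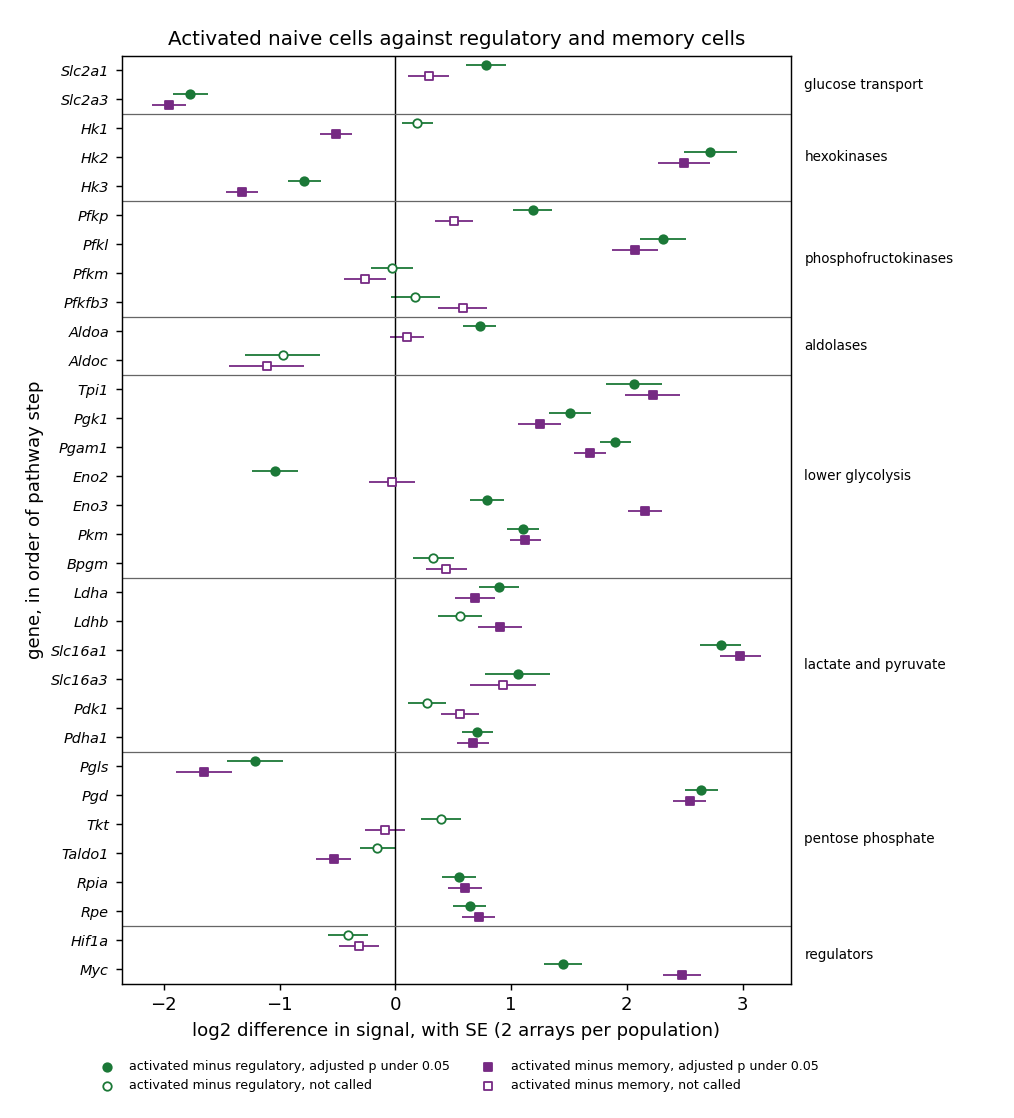
Log2 differences in signal of activated cells from regulatory cells (green circles) and from memory cells (purple squares) for the 32 genes by pathway step, with standard errors of the fit over 6 arrays. Filled symbols passed an adjusted p of 0.05, and Slc16a1, Hk2, Pgd, Pfkl and Tpi1 lie beyond 2 in both comparisons while Slc2a3 lies beyond -1.5.

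Lactate dehydrogenase turns pyruvate into lactate, which leaves the cell through monocarboxylate transporters. Slc16a1, which encodes the transporter MCT1, had the largest difference in both comparisons among the chosen probe sets above the floor on all arrays. The ranking depends on that choice. Another Tpi1 probe set gave 2.86 ± 0.18 against regulatory and 3.02 ± 0.18 against memory cells. Another of Pgk1 gave 3.57 ± 0.24 against regulatory and 2.05 ± 0.24 against memory cells. Slc16a1 read 9839 cKO and 9992 control in activated cells, 1342 cKO and 1488 control in regulatory cells, and 1399 cKO and 1131 control in memory cells. All values of activated cells lay above all others, 7.02-fold over regulatory cells (2.81 ± 0.18, adjusted p = 0.00191) and 7.88-fold over memory cells (2.98 ± 0.18, adjusted p = 0.00179). Ldha, the A subunit, rose by a smaller factor, with 21808 cKO and 21657 control in activated cells, 11959.6 cKO and 11383 control in regulatory cells, and 15591 cKO and 11685 control in memory cells, by 0.90 ± 0.17, adjusted p = 0.0165 and 0.69 ± 0.17, adjusted p = 0.0342 against regulatory and memory cells. Ldhb, the B subunit, rose against memory cells (0.90 ± 0.19, adjusted p = 0.0213) and differed from regulatory cells by 0.56 ± 0.19, adjusted p = 0.0779. In the fit of every probe set, other Ldhb probe sets were called higher than in regulatory cells, at 1.31 ± 0.17, adjusted p = 0.00781 and 0.81 ± 0.22, adjusted p = 0.0466. The remaining one was not (0.40 ± 0.20, adjusted p = 0.211). Slc16a3, which encodes the lactate exporter MCT4, was dim, with 119 cKO and 120.5 control in activated cells, 61.4 cKO and 54.0 control in regulatory cells, and 17.3 cKO and 82.8 control in memory cells. It was called against regulatory cells alone (1.06 ± 0.28, adjusted p = 0.0417), and its difference from memory cells, where the cKO array was below the floor, was 0.93 ± 0.28, adjusted p = 0.0588.

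At the entry of pyruvate to mitochondria, Pdha1, the catalytic subunit of pyruvate dehydrogenase, gave 5602 cKO and 6604 control in activated cells, 3451 cKO and 4016 control in regulatory cells, and 3478 cKO and 4186 control in memory cells. It rose in activated cells by 0.71 ± 0.14, adjusted p = 0.0167 against regulatory and 0.67 ± 0.14, adjusted p = 0.019 against memory cells. Pdk1, the kinase that switches pyruvate dehydrogenase off, read 2003 cKO and 2384 control in activated cells, 1585 cKO and 2066 control in regulatory cells, and 1189.9 cKO and 1839.5 control in memory cells and was not called, at 0.27 ± 0.16, adjusted p = 0.26 and 0.56 ± 0.16, adjusted p = 0.0519.

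The pentose phosphate genes did not move as a block. Pgd, 6-phosphogluconate dehydrogenase of the NADPH-making branch, read 9687 cKO and 10671 control in activated cells, 1651 cKO and 1606 control in regulatory cells, and 1678 cKO and 1816 control in memory cells. This was 6.24-fold over regulatory cells (2.64 ± 0.14, adjusted p = 0.00174) and 5.82-fold over memory cells (2.54 ± 0.14, adjusted p = 0.00176). The size depends on the probe set. Another of Pgd gave 1.11 ± 0.16 against regulatory and 1.44 ± 0.16 against memory cells. The remaining ones gave 2.63 and 2.56 against regulatory cells, and 2.51 and 2.37 against memory cells. Pgls, the lactonase of the step just before that of Pgd, went the other way, with 819 cKO and 648 control in activated cells, 1495 cKO and 1911 control in regulatory cells, and 1992 cKO and 2628 control in memory cells. The log2 difference was -1.21 ± 0.24, adjusted p = 0.0181 against regulatory cells and -1.65 ± 0.24, adjusted p = 0.00785 against memory cells. Rpia and Rpe, which interconvert the pentose phosphates, rose modestly, by 0.55 and 0.64 against regulatory cells and 0.60 and 0.72 against memory cells. In the fit of every probe set, another of Rpe gave 0.23 ± 0.18, adjusted p = 0.373 against regulatory cells. Against memory cells it gave 0.75 ± 0.18, adjusted p = 0.0356. Of the enzymes of the branch that leads back to glycolysis, Tkt (transketolase) was not called, with 16158 cKO and 16784 control in activated cells, 11634 cKO and 13539.9 control in regulatory cells, and 18892 cKO and 16305 control in memory cells. Taldo1 (transaldolase) was 3160.5 cKO and 3458 control in activated cells, against 5027 cKO and 4554 control in memory cells, and was called lower in activated cells by a narrow margin (-0.53 ± 0.15, adjusted p = 0.0497).

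Of the regulators, Myc was called, and Hif1a was not called by its chosen probe set. Myc read 4957 cKO and 4657 control in activated cells, 1692 cKO and 1828 control in regulatory cells, and 780.0 cKO and 953 control in memory cells, so that the 3 pairs followed each other without overlap. Activated cells were 2.73-fold above regulatory cells (1.45 ± 0.16, adjusted p = 0.00449) and 5.57-fold above memory cells (2.48 ± 0.16, adjusted p = 0.00184). Hif1a gave 9192 cKO and 8792 control in activated cells, 12949 cKO and 11054 control in regulatory cells, and 13297 cKO and 9376 control in memory cells, with log2 differences of -0.41 ± 0.17, adjusted p = 0.127 against regulatory and -0.31 ± 0.17, adjusted p = 0.228 against memory cells. Other Hif1a probe sets above the floor on all arrays differed: 1 was lower in activated cells, by -2.33 ± 0.33, adjusted p = 0.00911 and -1.28 ± 0.33, adjusted p = 0.0428 in these comparisons, and another gave -0.30 ± 0.24, adjusted p = 0.389 and 0.49 ± 0.24, adjusted p = 0.206.

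**Figure D3:**
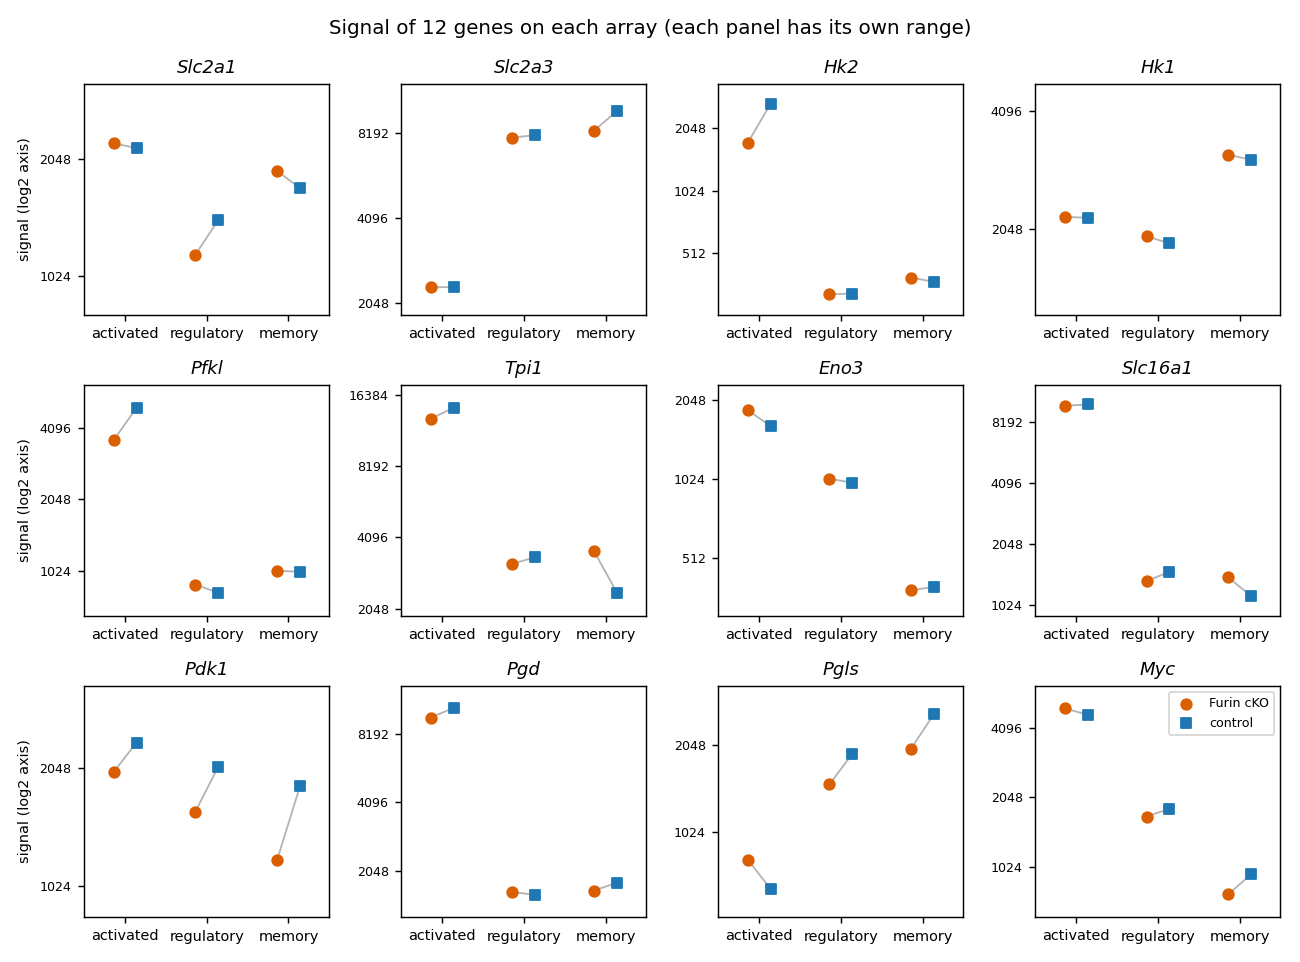
Signal of 12 of the genes on each array on a log2 axis, with Furin cKO arrays as orange circles and control arrays as blue squares joined within a population; each panel has its own range. Hk2, Pfkl, Tpi1, Slc16a1, Pgd and Myc are highest in activated cells, Slc2a3 and Pgls are lowest there, and Hk2 and Pfkl show a lower cKO than control value within activated cells.

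Because genes that rose together include known targets of Myc and HIF-1, their proximal promoters were read from RefSeq (GRCm38.p6) for the core letters bound by these factors. ACGTG, on either strand, is the core of HIF-1 sites, and the E-box CACGTG of Myc and Max contains it, so that each E-box counts as 2 matches of ACGTG, 1 on each strand. Of the 32 genes 30 matched the table, with 42 promoters, and Slc2a3 and Myc had no entry. In the 250 bases before the start, 16 of the 42 promoters (38.1%) held ACGTG, against 16.6% of all 32851 promoters, and 5 (11.9%) held CACGTG, against 6.02%. The promoters were not matched to the others in base composition. Of the 16 promoters of genes that rose in both comparisons 6 held ACGTG (37.5%), and of the other 26 promoters 10 did (38.5%). A match is a description of these letters and not a shown site. The windows below are those with at least 2 matches among the genes that rose in both comparisons, 5' to 3' on the gene's strand, with matches in capitals. Slc16a1 lies at chr3:104638414-104638663 on the plus strand, Hk2 at chr6:82774455-82774704 on the minus strand, Ldha at chr7:46845554-46845803 on the plus strand and Pgk1 at chrX:106186850-106187099 on the plus strand.
Slc16a1: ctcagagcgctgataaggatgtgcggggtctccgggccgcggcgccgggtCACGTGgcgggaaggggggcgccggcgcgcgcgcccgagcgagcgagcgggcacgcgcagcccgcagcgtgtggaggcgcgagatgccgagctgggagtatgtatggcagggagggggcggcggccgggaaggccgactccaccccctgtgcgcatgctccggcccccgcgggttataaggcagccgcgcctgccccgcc
Hk2: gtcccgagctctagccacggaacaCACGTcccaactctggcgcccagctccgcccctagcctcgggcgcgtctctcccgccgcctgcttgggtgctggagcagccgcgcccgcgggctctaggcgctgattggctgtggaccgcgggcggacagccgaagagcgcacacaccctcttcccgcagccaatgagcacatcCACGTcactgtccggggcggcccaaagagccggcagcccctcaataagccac
Ldha: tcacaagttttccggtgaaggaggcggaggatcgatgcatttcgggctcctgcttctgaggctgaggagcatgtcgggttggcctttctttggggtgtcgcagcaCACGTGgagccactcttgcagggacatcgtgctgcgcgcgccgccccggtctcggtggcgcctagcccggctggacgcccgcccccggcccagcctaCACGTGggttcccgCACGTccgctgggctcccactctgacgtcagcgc
Pgk1: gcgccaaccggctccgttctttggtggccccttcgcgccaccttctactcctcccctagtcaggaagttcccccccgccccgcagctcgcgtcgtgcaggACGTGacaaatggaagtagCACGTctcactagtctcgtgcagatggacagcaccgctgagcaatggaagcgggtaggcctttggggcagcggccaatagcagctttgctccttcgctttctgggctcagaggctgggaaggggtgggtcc
Ldha holds 2 E-boxes and 1 further match of ACGTG, and Slc16a1 holds 1 E-box. Hk2 and Pgk1 each hold 2 matches of ACGTG and no E-box. Other genes with at least 2 matches were Pfkfb3, Slc16a3, Hif1a and Pfkm, none of which rose in both comparisons.

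The calls rest on few arrays. With any 1 array left out the fit keeps 1 residual degree of freedom, and the lone array of its population is assumed to vary like the others. All 20 calls against memory cells and all 22 against regulatory cells had the same direction in the cKO and in the control arrays. That they also kept it was thus little further check in each of these 6 fits. Hk1, Ldhb, Pdha1, Taldo1, Rpia and Rpe against memory cells, and Slc2a1 and Rpia against regulatory cells, were not called in any of them. Against memory cells 5 genes stayed called in all 6 fits, namely Slc16a1, Pgd, Eno3, Pgam1 and Slc2a3, and 5 to 9 genes were called higher and 1 to 3 lower. Against regulatory cells the fits without the cKO or the control regulatory array called 0 genes of the 15798, and those without the cKO or the control activated array called 6 and 4 of the 32 genes higher. Without both regulatory arrays, whose Foxp3 signal goes against their label, 5 genes rose and 2 fell in activated against memory cells. Without both memory arrays 16 rose and 4 fell against regulatory cells. Quantile normalization moved the median over all genes to 0.00 in both comparisons, and the share of calls that were higher went to 51.4% over all genes against memory cells, where the deposited scaling gave 39.1%, and to 55.2% against regulatory cells, where it gave 40.5%. Of the 32 genes 18 then rose and 5 fell against memory cells, and 18 rose and 3 fell against regulatory cells.

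Regulatory and memory cells differed less, and none of the 32 genes passed between them, where 0.386% of all genes did. At an unadjusted p below 0.05, 3 were higher and 6 lower in regulatory cells, where 21.3% of all genes passed in either direction, and the arrays of these populations did not overlap in 18 of the 32 genes, against 44.7% of all genes. Among these Eno3 was 2.58-fold higher in regulatory cells (1.37 ± 0.15, adjusted p = 0.0616), with non-overlapping signals given above. Myc was 2.04-fold higher (1.03 ± 0.16, adjusted p = 0.0824) and Eno2 2.01-fold higher (1.01 ± 0.20, adjusted p = 0.0975). Lower in regulatory cells were Hk1 (-0.70 ± 0.14, adjusted p = 0.0975), Pfkp (-0.68 ± 0.17, adjusted p = 0.134), Aldoa (-0.63 ± 0.14, adjusted p = 0.123), Hk3, Slc2a1 and Tkt. Pgd (-0.10 ± 0.14), Pkm (0.02 ± 0.14), Slc16a1 (0.17 ± 0.18) and Pdha1 (-0.04 ± 0.14), 4 of the genes that rose in activated cells, were close to 0 in this comparison. With the floor at the 60th percentile, with a prior that follows the mean signal or with population as the only term, Eno3 and Myc were called higher and Hk1 lower.

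Between the genotypes none of the measured genes was counted past 2-fold, where the value of Slc16a3 in memory cells is a lower bound. Within a population each genotype has 1 array, so these differences have no test and no replicate check, and a gene was counted past 2-fold. None of the 32 genes, of which Hk3 was below the floor in activated cells, passed 2-fold in activated, regulatory or memory cells, where 0.763%, 5.26% and 9.26% of all measured genes did. Past 1.5-fold lay 2 genes in activated cells, 1 in regulatory cells and 2 in memory cells, all lower in cKO. Of all genes 4.73%, 17.4% and 26.1% lay past it in either direction, and 2.51%, 7.76% and 12.4% lay past it on the lower side. The median log2 difference of the genes was 0.00 in activated, -0.08 in regulatory and 0.03 in memory cells, against -0.005, -0.02 and -0.01 over all genes. Averaged over the populations in the linear model, 0 of all 15798 genes were called and 461 (2.92%) had an unadjusted p below 0.05, of which 1 was among the 32, Pdk1.

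In activated cells the genes past 1.5-fold were Hk2, with 1739 on the cKO array and 2675 on the control array (-0.62), and Aldoc, with 156 on the cKO array and 284 on the control array (-0.86). Pfkl came next, with 3644 on the cKO array and 4999.9 on the control array (-0.46), while its other probe sets gave -0.55 (2058 cKO and 3023 control) and -0.07 (264.5 cKO and 276.8 control). In regulatory cells Hk2 differed by -0.01, and the 3 Pfkl probe sets by 0.11, -0.49 and -0.32 in the same order. In memory cells Hk2 differed by 0.07 and the Pfkl probe sets by 0.01, 0.13 and 0.43, and the difference between populations was not tested. Slc16a1, Ldha, Pgk1, Aldoa, Slc2a1 and Slc2a3 had log2 differences from -0.02 to 0.04 in activated cells by their chosen probe sets. The other probe sets of Slc2a1 gave -0.45 (1339 cKO and 1823.9 control) and -0.24 (1539.6 cKO and 1818.4 control). Another of Slc2a3 gave 0.32 (1622.6 cKO and 1299.9 control), 1 of Pgk1 gave -0.28 and 1 of Aldoa gave 0.18. The remaining Pgk1 and Aldoa probe sets gave 0.01 to 0.09. Pgls was higher in activated cKO cells (0.34) and lower in regulatory (-0.35) and memory cKO cells (-0.40).

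Aldoc was also the gene past 1.5-fold in regulatory cells, with 326 on the cKO array and 522 on the control array (-0.68), and in memory cells it read 500.1 on the cKO array and 414 on the control array (0.27). Memory cells differed past 1.5-fold in Pdk1, with 1189.9 on the cKO array and 1839.5 on the control array (-0.63), and in Slc16a3, which was below the floor on the cKO array and thus at least 1.74-fold lower, from a dim control signal of 82.8. In the same cells Tpi1 (0.58), Pgk1 (0.44), Ldha (0.42) and Slc16a1 (0.31) were higher on the cKO array, and Ldhb (-0.52), Bpgm (-0.52) and Pfkfb3 (-0.50) lower. On these arrays the proliferation marker Mki67 read 5261 cKO and 1259.9 control, next to the granulocyte and myeloid sums given above, and their part in these differences was not tested.

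Some genes kept 1 direction in all 3 populations. Of 31 genes measured in each, 4 were higher in cKO throughout and 5 lower, close to the shares of all 10376 such genes (11.5% and 17%). Pdk1 was lower in each pair (log2 differences of -0.25, -0.38 and -0.63 in activated, regulatory and memory cells), with a model estimate of -0.42 ± 0.13 and adjusted p = 0.824. Pdha1, the target of that kinase, was lower in each (-0.24, -0.22 and -0.27), and Bpgm, Pkm and Slc2a3 were the others. Hif1a (0.06, 0.23 and 0.50), Pgam1, Ldha and Hk1 were higher in each. These directions are those of the chosen probe sets. Another Hif1a probe set gave -0.07, 0.10 and -0.67 in the same order, and another of Hk1 gave -0.41, -0.47 and -0.05. Another of Pdk1 gave -0.77, -0.37 and 0.28, and another of Slc2a3 gave 0.32, -0.02 and 0.05. The remaining Pdk1 probe sets and the others of Bpgm and Pdha1 were lower in each.

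**Figure D4:**
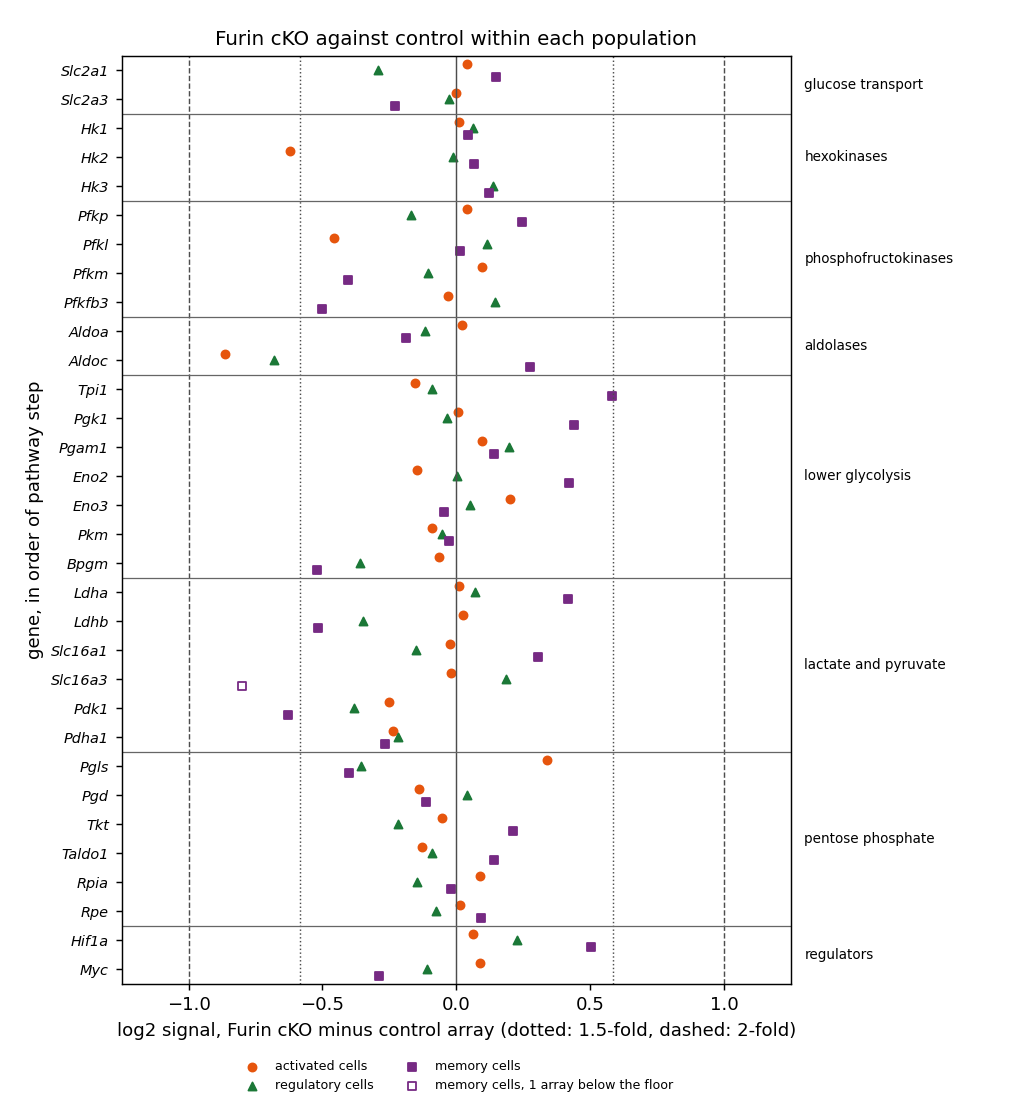
Log2 signal of the Furin cKO array minus the control array of the same population for each gene, in activated (circles), regulatory (triangles) and memory cells (squares); dotted lines mark 1.5-fold, dashed lines 2-fold, and the open square is a lower bound. No point lies beyond the dashed lines, and Aldoc and Hk2 in activated cells, Aldoc in regulatory cells and Pdk1 and Slc16a3 in memory cells lie beyond the dotted ones.

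Several genes have more than 1 probe set, and these do not always follow each other. Over 16 genes, 32 other probe sets were above the floor on all arrays, of which 10 went the opposite way in activated minus memory cells and 7 in activated minus regulatory cells. In 0 of these cases were both the chosen and the other probe set called when all probe sets were tested. For Bpgm the chosen probe set was uncalled, while another read 205 cKO and 245 control in activated cells, 705 cKO and 728 control in regulatory cells, and 479 cKO and 630.1 control in memory cells, which is -1.68 ± 0.16, adjusted p = 0.00451 against regulatory and -1.29 ± 0.16, adjusted p = 0.00762 against memory cells. For Pdk1 the probe sets spread from -1.98 ± 0.29, adjusted p = 0.0103 to 1.10 ± 0.17, adjusted p = 0.0105 in activated minus regulatory cells, so that no direction can be given for Pdk1 between populations. One Pfkl probe set of low signal did not follow the other pair (-0.14 ± 0.23, adjusted p = 0.7 against regulatory cells). By contrast all probe sets of Tpi1, Pgk1, Pgd, Ldhb, Slc2a1 and Pdha1 above the floor were higher in activated cells in both comparisons, and all of Slc2a3 were lower. Between genotypes 10, 14 and 7 of the 32 went the opposite way to the chosen probe set in activated, regulatory and memory cells. Among the chosen probe sets 4 carry the suffix x and 2 the suffix s, marks of Affymetrix for probes that can match other transcripts, and they include those of Aldoa, Pgd, Tkt, Hk3, Slc2a3 and Bpgm.

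**Figure D5:**
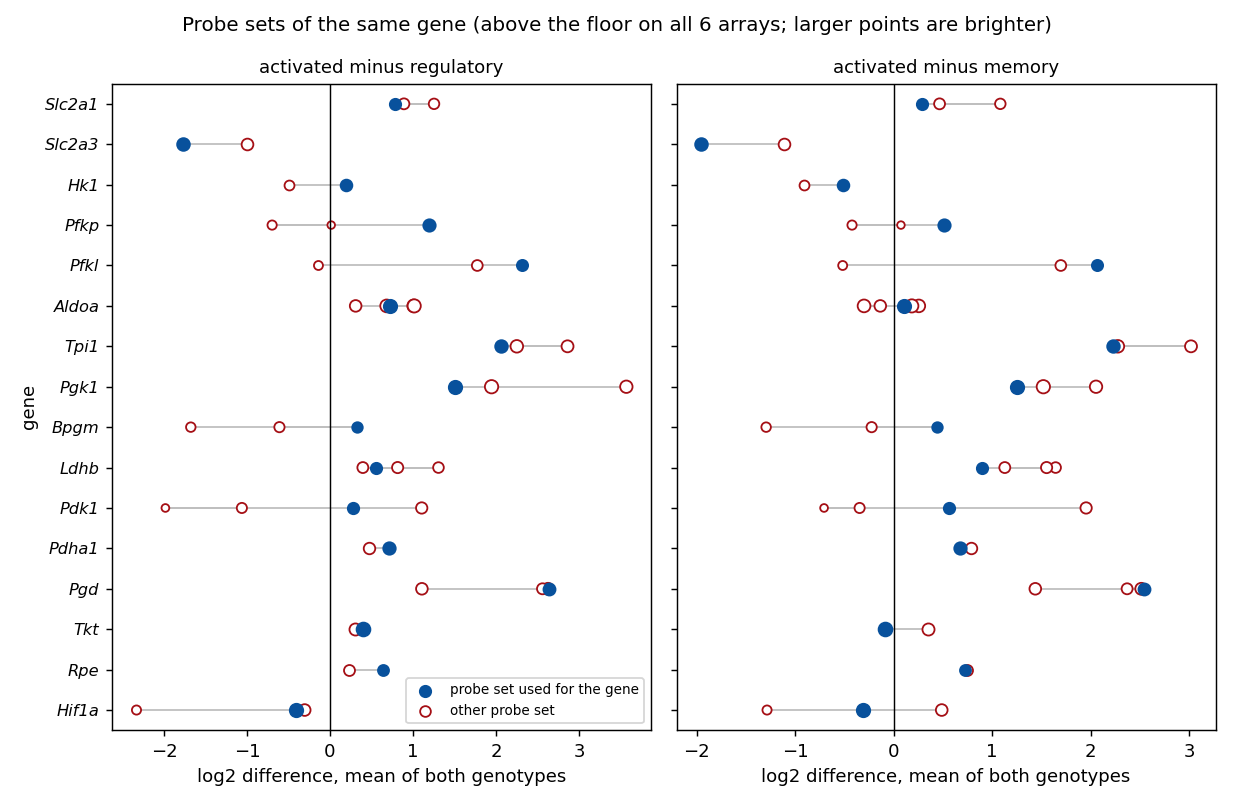
Log2 difference of activated from regulatory cells (left) and from memory cells (right) for each probe set of the 16 genes with several above the floor, as the mean over both genotypes; filled points are the probe sets used, open points the others, and larger points are brighter. The points of Pgk1, Tpi1, Pgd and Slc2a3 lie on one side of 0, whereas those of Bpgm and Pdk1 straddle it.

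Neighbouring enzymes and isoenzymes, a further list of 50 measured genes, had 15 that rose and 12 that fell among 47 tested against memory cells, and 15 and 9 against regulatory cells. The shares over all genes were 17.4% and 27.1% against memory cells and 18.2% and 26.7% against regulatory cells. The median log2 differences of the list were -0.15 and 0.00, against -0.21 and -0.23 over all genes. Dlat and Dld, further subunits of the pyruvate dehydrogenase complex, rose against memory cells by 2.02 ± 0.21, adjusted p = 0.00369 and 1.89 ± 0.14, adjusted p = 0.00193. The mitochondrial glycerol phosphate shuttle enzyme Gpd2 read 2158 cKO and 2046 control in activated cells, 451 cKO and 427 control in regulatory cells, and 674 cKO and 782 control in memory cells, a rise of 2.26 ± 0.16, adjusted p = 0.00206 against regulatory cells. Got1, the cytosolic aspartate aminotransferase, rose by 1.60 ± 0.17, adjusted p = 0.00376 in the same comparison. Slc2a8, an intracellular glucose transporter, fell against memory cells (-1.58 ± 0.16, adjusted p = 0.00339). Pdk2, a sister kinase of Pdk1, was below the floor on both activated arrays. It is among the genes counted as lower in both comparisons, and, as for Hk3, its calls are no test. In memory cells 3 genes of this list were higher and 3 lower past 2-fold between genotypes, where 9.26% of all genes lay past it. The higher ones were Tigar, which encodes a phosphatase that lowers fructose 2,6-bisphosphate (483.6 cKO and 225.5 control), Me1 (102.1 cKO and 40.9 control, below the floor) and Pdp1 (264.1 cKO and 131.4 control). The lower ones were Pgam2 (28.7 cKO, below the floor, and 180.6 control), Pdk2 (83.5 cKO and 228.5 control) and Pfkfb2 (70.8 cKO and 142.6 control).

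Of 37 genes of the hypoxia and Myc networks, 14 rose and 9 fell against memory cells and 12 rose and 11 fell against regulatory cells, beside the same shares over all genes (17.4% and 27.1%, then 18.2% and 26.7%). Genes at the floor on the activated arrays were not taken out of the counts of either list or of these shares. An example is Epas1 (33.1 cKO and 39.8 control in activated cells), whose call as lower against memory cells is no test, as for Hk3. Txnip, which encodes an inhibitor of glucose uptake, read 1413 cKO and 1732 control in activated cells, 7992 cKO and 9073 control in regulatory cells, and 7873 cKO and 7722 control in memory cells, a log2 difference of -2.44 ± 0.16, adjusted p = 0.00193 against regulatory and -2.32 ± 0.16, adjusted p = 0.00185 against memory cells. Mxd4, an antagonist of Myc at E-boxes, had 291 cKO and 259 control in activated cells, 2876 cKO and 3509 control in regulatory cells, and 3054 cKO and 3301 control in memory cells, with -3.53 ± 0.17, adjusted p = 0.00172 against regulatory cells. The transferrin receptor gene Tfrc and the amino acid transporter gene Slc7a5, both described as Myc targets, rose against regulatory cells by 3.11 ± 0.15, adjusted p = 0.00165 and 2.35 ± 0.22, adjusted p = 0.00304. Bnip3, a HIF-1 target of mitophagy, gave 1370.2 cKO and 2289 control in activated cells, 352 cKO and 349 control in regulatory cells, and 259.8 cKO and 394 control in memory cells, with a rise of 2.34 ± 0.23, adjusted p = 0.00352 against regulatory cells. Past 2-fold between genotypes lay Vegfa and Mycn in activated cells, both below the floor on the cKO array, and Mxd3 in regulatory cells (357.1 cKO and 102.4 control) and memory cells (653.7 cKO and 139.2 control).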

How the data were processed

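The 6 arrays measured transcripts of mouse CD4 T cells. The authors deposited 1 intensity per probe set and array on a linear scale, computed by MAS5 according to GEO's tool list (per the submitters' processing notes), and the mean after trimming was the same on every array. The sources used here give no MAS5 settings. Of 45101 probe sets 64 controls were set aside, 34945 of the other 45037 carried 1 gene symbol, and 18193 genes were each read by their brightest probe set on average, on the log2 scale after the floor. The floor was the pooled 40th percentile, 47.6; the rule gave another probe set for 1 of the genes when signals were not raised to it. Genes above the floor on some array (15798) were fitted with limma 3.58.1 in R 4.3.3, with population and genotype as terms, empirical Bayes moderation and Benjamini-Hochberg adjustment. The fit was tested on simulated data. Within a population, genotypes were compared by folds with no test, for genes above the floor on either array. The number of arrays limits the precision. All 32 measured genes of the list may be named; of the 2 further lists, up to 6 called genes per comparison and those past 2-fold. Genes and lists were chosen with earlier results of these data known. Alternatives were quantile normalization, cyclic loess, floors at the 20th and 60th percentiles, averaged probe sets, another prior, no genotype term and each array left out. Fits of 4 arrays and of every probe set were added after the data were seen. Gapdh had no fitted value, since only control probe sets name it alone.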

Additional observations from a re-analysis of the deposited data

How the results depend on the processing

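No paired analysis was possible because the labels give no replicate numbers and each genotype and population has 1 array. Gapdh has no fitted value and is given as control signals. Activated minus memory cells had 15 genes higher and 5 lower; 3 were lower under a 20th-percentile floor and 3 when every probe set was tested, 5 were higher and 2 lower in the fit of 4 arrays, and with each array left out 5 to 9 were higher and 1 to 3 lower. Activated minus regulatory cells had 18 higher and 4 lower; 2 were lower with cyclic loess and 7 with the mean of all probe sets, and with each array left out 0 to 16 were higher and 0 to 4 lower. Regulatory minus memory cells had 0 calls, and 2 higher and 1 lower under a 60th-percentile floor, the prior that follows the mean signal, or population as the only term. Between genotypes 1 gene, Slc16a3, was past 2-fold lower in memory cells with the floor at the 20th percentile. Genes uncalled as reported turned and were called in 5 cases: in activated minus memory cells Eno2 (0.83 with quantile normalization, 0.85 with cyclic loess) and Tkt (0.87 with quantile normalization), and in activated minus regulatory cells, with the mean of all probe sets, Pdk1 (-0.42) and Bpgm (-0.65). The means of Pdk1 and Bpgm take in other probe sets. Those of Pdk1 gave -1.98, -1.06 and 1.10 against regulatory cells, and those of Bpgm -1.68 and -0.61. The cause of the other changes was not tested, and a fit without 1 array also has fewer degrees of freedom. Among the other single-gene values of population contrasts in the alternatives that keep all arrays, 609 kept their side of the threshold, 31 gained and 21 lost a call. The fits without 1 array were left out of these counts. Over all genes, regulatory minus memory cells had 9 higher and 52 lower, and 0 to 270 higher and 0 to 393 lower over the alternatives that keep all arrays. Genes past 2-fold between genotypes varied, with 42 higher and 40 lower in activated cells (17 to 472 and 9 to 445 over the alternatives), 458 and 309 in regulatory cells (39 to 1757 and 39 to 1450), and 800 and 518 in memory cells (258 to 2219 and 221 to 1531). With each array left out, 573 to 1253 genes of all were higher and 1142 to 2095 lower in activated than in memory cells (2754 and 4282 with all arrays), and 0 to 2176 higher and 0 to 3066 lower than in regulatory cells (2878 and 4222). Dim genes such as Hk3, Eno2 and Slc16a3 are limited by their signal over the floor.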
